A study of Mus musculus with 9 samples.

Results

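The baseline transcriptome of wildtype mouse cumulus cells was read from the 3 expression arrays labelled as wildtype among the 9 arrays of the series. Cumulus cells are the granulosa cells that stay attached to the oocyte inside an antral follicle. Of 45101 probe sets on each array, 34958 named a single gene, and together they measured 18194 genes. Of these probe sets 34754 named a gene of the reference table. Where a gene had several probe sets, the one with the highest wildtype mean stood for it, and genes were ranked by that mean. Values are log2 expression, so a difference of 1 is 2-fold, and each is given as the mean ± SD over the 3 arrays (n = 3) or array by array in the order 1, 2, 3.

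The samples came from wildtype females of a mixed B6/129 background, 4 to 5 months old, primed for 48 h with 5 IU of equine chorionic gonadotropin (eCG, also called PMSG), which drives follicles to the large antral stage. The protocol names no ovulatory hormone, and the cumulus was collected unexpanded. Each sample pooled 75 to 100 cumulus-oocyte complexes of 3 or 4 mice, and the 3 pools were independent. The oocytes were drawn off through a narrow glass pipette in medium with 5 µM milrinone, which blocks PDE3 and holds the oocyte in meiotic arrest. Only 10 ng of total RNA per sample entered labelling with 2 rounds of amplification, which favours the 3' ends of transcripts. The other 6 arrays of the series, from Bmp15-/- mice and from Bmp15-/-Gdf9+/- double mutants (called DM), were used here only for the spread of the same genes among replicate arrays. All genotypes shared the gonadotropin and the collection medium.

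Cumulus cells are coupled to the oocyte by gap junctions and feed it pyruvate, amino acids and cholesterol that it makes poorly itself. The oocyte in turn secretes BMP15 and GDF9, growth factors of the TGF-beta superfamily that act through paired type I and type II serine/threonine kinase receptors and SMAD proteins. After the ovulatory surge, EGF-like factors make the cumulus cells build a hyaluronan matrix, the expansion of the cumulus. The levels below describe the cells before that step.

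The wildtype arrays ran on the same scale, with medians over all probe sets of 5.57, 5.57 and 5.55 and values from 2.88 to 14.53. Pearson's r between pairs of arrays, over all probe sets, was 0.994 to 0.995, and probe sets are not independent replicates. Array 2 stood apart in 2 gene groups described below, high in oocyte transcripts and low in immediate early transcripts. Bmp15, an oocyte transcript, read 5.10 on wildtype array 1, which lies at the 5.08 to 5.10 of the Bmp15-/- arrays, and 9.58 and 8.41 on wildtype arrays 2 and 3. Bmp15 is not known as a cumulus cell transcript, so its level does not check the genotype of these samples. The 3' control probe set exceeded the 5' one by 0.56 ± 0.03 for Gapdh, 1.89 ± 0.02 for Actb and 4.66 ± 0.11 for Tfrc. For these 3 controls the 5' end was read below the 3' end on every array.

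A gene was called above background on an array when it exceeded the 95th percentile of 130 genes of the olfactory, vomeronasal and taste receptor, keratin-associated protein and beta-defensin families, which are known from sensory, hair and epithelial cells. That level was 5.95, 6.12 and 5.89 on the 3 arrays. By this measure 10013 genes (55%) lay above background on all 3 arrays, 7319 (40.2%) on none, and 862 (4.74%) on 1 or 2. Protein-coding genes were above on all 3 arrays in 9771 of 16474 cases (59.3%), and long non-coding RNA genes in 179 of 1458 (12.3%). Above background is not proof of transcription. Sry, the testis-determining gene of the Y chromosome, read 7.52, 7.58 and 7.60 in these females, which carry no Y chromosome, while the other 5 measured Y-linked genes (Zfy2, Usp9y, Kdm5d, Uty and Eif2s3y) lay between 3.63 and 5.80 and not above background on any array. The converse holds too: Rps16, a protein of every ribosome, read 3.99 ± 0.12, so a probe set at background does not show that its gene is silent.

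**Figure D1:**
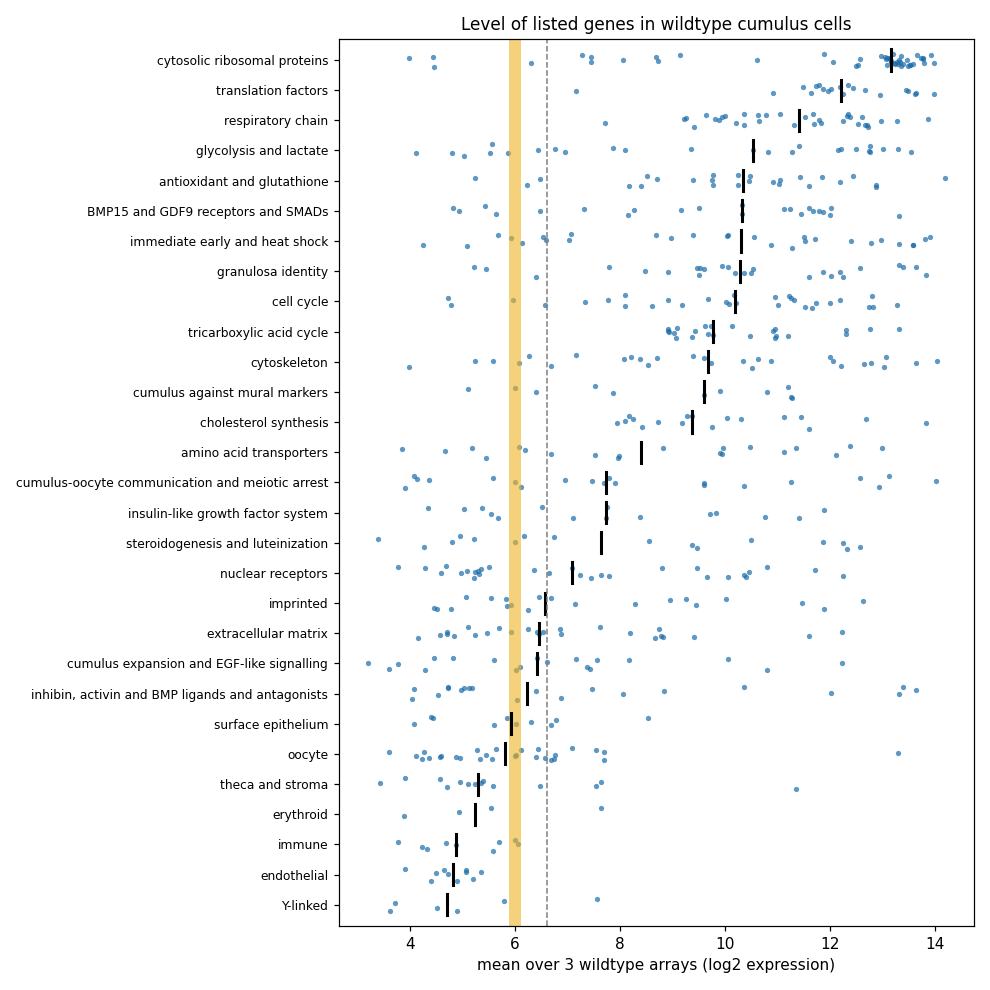
Mean log2 expression over the 3 wildtype arrays of every measured member of 29 gene lists, 1 point per gene; black bars mark each list's median, the orange band the background levels of the 3 arrays (5.89 to 6.12) and the dashed line the median of all genes (6.60). Ribosomal, translation and respiratory lists have the highest medians, and the endothelial, immune and Y-linked lists lie mostly below the band.

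The granulosa label was checked against its markers and matched them. Of 26 measured genes of granulosa identity, 24 lay above background on all 3 arrays, with a list median of 10.28 against 6.60 over all genes. Foxl2, the transcription factor that keeps granulosa cells from taking a Sertoli fate, read 10.40, 10.55 and 10.61. Fshr, the receptor for follicle-stimulating hormone and the target of eCG here, read 10.40, 10.55 and 10.51. Nr5a2, a nuclear receptor required for ovulation, reached 12.25 ± 0.16, and its relative Nr5a1 9.46 ± 0.06. Gata4 (10.19 ± 0.12), Gata6 (8.48 ± 0.08), Wt1 (8.91 ± 0.45), Runx1 (10.06 ± 0.13), Emx2 (9.94 ± 0.26) and Irx3 (9.52 ± 0.22), all transcription factors of the gonadal soma, were above background on every array. So were Hsd17b1 (11.87 ± 0.02), which reduces estrone to estradiol, the cadherin Cdh2 (12.56 ± 0.03), the matrix protein Sparc (11.59 ± 0.05), Bex4 (12.18 ± 0.04) and the estrogen receptor Esr2 (7.78 ± 0.06). Lhx9 (5.45 ± 0.14) and Nr0b1 (5.23 ± 0.30) were the 2 members not above background on any array.

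Amh, which marks cumulus against mural granulosa cells, was only just above background at 6.57, 6.35 and 6.31. The list of cumulus and mural markers had 9 of 11 members above background on all 3 arrays, and the 2 that were not were Cd34 and Cyp11a1. It mixes markers of both kinds, so this count does not tell cumulus from mural cells. Kitl, also on this list, was well above background at 9.60 ± 0.09. The series holds no mural sample, so these levels cannot be compared with those of mural cells. The carbonic anhydrase Car14 read 11.19 ± 0.03, the natriuretic peptide receptor Npr2 11.25 ± 0.12, and the amino acid transporter Slc38a3, which the oocyte is known to induce in its cumulus cells, 7.52 ± 0.09. Cd34 (5.11 ± 0.24) was not above background on any array, and Cyp11a1, which starts steroid synthesis in mural cells, read 6.20, 5.49 and 6.30, above background on arrays 1 and 3.

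The 100 highest-ranked genes held 19 members of the ribosomal protein list, 5 translation factors and 5 immediate early and heat shock genes. They also held 4 genes of the granulosa identity list and 2 each of the respiratory chain, glycolysis and the cytoskeleton. Lists overlap: those 4 were Hmgcs1, Inhbb, Fst and Inha, and Hmgcs1 is also on the cholesterol synthesis list. Ywhae, a 14-3-3 adaptor protein, ranked first at 14.17, 14.19 and 14.23. It was followed by Mrfap1 (14.18 ± 0.05), the superoxide dismutase Sod1 (14.18 ± 0.03), the actin-severing protein cofilin, Cfl1 (14.03 ± 0.04), and the microtubule destabiliser Stmn1 (14.02 ± 0.01). Neighbours in this order could not be told apart: over the 100 highest genes the median gap to the next rank was 0.0054, against a median SD of 0.0349. The ribosomal protein list was led by Rpl7a (13.98 ± 0.03) and Rps24 (13.91 ± 0.03), and 45 of its 48 measured members lay above background on all 3 arrays with a median of 13.15. It leaves out Rps3a1, a further ribosomal protein, which ranked 14. Eef1a1, the elongation factor that brings tRNAs to the ribosome, read 13.97 ± 0.03, and all 20 measured translation factors were above background. The rank compares probe signals rather than transcript amounts, since probes differ in how strongly they bind. Of the probe sets behind the 100 highest genes, 33 are of the kinds designed with possible binding to several transcripts, against 9.02% of all genes' probe sets. With the mean over all probe sets of a gene in place of the highest, 38 of the 100 genes kept a place among the first 100.

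Among the first 30 were genes with a known part in the follicle. Gja1 encodes connexin 43, the gap junction protein that couples cumulus cells to each other, and it ranked 6 with 13.99, 14.05 and 14.00. Inhbb, the beta B subunit of inhibin and activin, ranked 27 with 13.62, 13.64 and 13.66. Hmgcs1, which makes HMG-CoA for cholesterol synthesis, ranked 13 at 13.82 ± 0.02, and beta-catenin, Ctnnb1, ranked 28 at 13.64 ± 0.06. Egr1, a transcription factor that cells make within minutes of a stimulus, ranked 10 with 13.98, 13.76 and 13.95. Fos, its companion in the immediate early response, ranked 38 with 13.73, 13.32 and 13.68. The remaining places were held by the chaperone Hsph1 (13.80), the chromatin proteins Hmgn1 (13.89), Rbbp4 (13.79), H2az1 (13.66) and Nap1l1 (13.63), the mitochondrial Cox7a2 (13.87) and Vdac1 (13.70), Ivns1abp (13.79), Hnrnpu (13.68), Stt3a (13.67), Actb (13.63) and the ribosomal proteins Rps3a1, Rplp2, Rps15, Rpl4, Rpl38 and Rps29 (13.65 to 13.81).

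The promoters of Gja1 and Fos are shown because both genes ranked near the top and hold the same short motif, TGACG, the core of the cAMP response element, read on both strands. FSH receptors raise cAMP in granulosa cells. Each sequence spans 250 bases before to 50 bases after the transcription start in RefSeq, build GRCm38.p6, for Gja1 at chr10:56377050-56377349 and for Fos at chr12:85473640-85473939, both on the plus strand. Capitals mark TGACG or its reverse complement CGTCA, and the matches start 201 and 159 bases before the start of Gja1 and 129 and 66 bases before that of Fos.
Gja1: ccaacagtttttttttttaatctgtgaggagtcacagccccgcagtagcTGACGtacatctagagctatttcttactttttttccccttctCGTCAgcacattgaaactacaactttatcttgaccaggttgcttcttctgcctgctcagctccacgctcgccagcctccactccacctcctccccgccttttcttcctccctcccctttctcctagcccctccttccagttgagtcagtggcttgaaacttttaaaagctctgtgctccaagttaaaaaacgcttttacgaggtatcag
Fos: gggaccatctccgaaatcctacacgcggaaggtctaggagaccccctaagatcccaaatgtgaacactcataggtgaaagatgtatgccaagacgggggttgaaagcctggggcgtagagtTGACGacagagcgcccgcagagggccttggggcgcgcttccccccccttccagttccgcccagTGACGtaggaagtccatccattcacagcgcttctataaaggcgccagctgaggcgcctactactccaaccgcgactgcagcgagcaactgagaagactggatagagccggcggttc
The motif was found in 34 of the 84 promoters listed for the 100 highest genes (40.5%) and in 21.0% of the 27025 promoters of that table. That table includes genes not measured or not above background here, and no share was computed for other genes above background. Other motifs were scanned in the same way. TGACG alone among them holds a fixed CG, and the base content of the promoters was not compared. AGGTCA was found in 16.7% of the 84 promoters and 16.0% of all, and CANNTG in 70.2% and 72.2%. TATAAA was less frequent in the 84 promoters, at 5.95% against 14.2% of all. A match describes letters and not a bound factor, and a part of cAMP in these levels was not tested.

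The inhibin and activin subunits and their antagonist follistatin had high levels with little spread. Inha, the alpha subunit that makes a dimer inhibin rather than activin, read 13.31, 13.30 and 13.33. Inhba, the beta A subunit, read 12.07, 11.92 and 12.04, and follistatin, Fst, which binds activin and blocks it, read 13.36, 13.38 and 13.44. The BMP antagonist Grem1 (10.37 ± 0.30), Bmp6 (8.83 ± 0.07), the pseudoreceptor Bambi (8.06 ± 0.16), Tgfb3 (7.47 ± 0.28) and the follistatin relative Fstl3 (6.88 ± 0.12) were also above background on all 3 arrays. In all, 10 of 20 ligands and antagonists were, near the 55% of all genes. Tgfb2 (6.05 ± 0.53) exceeded background on 1 array. Bmp2, Bmp4, Bmp7, Tgfb1, Inhbc, Inhbe, Nog, Chrd and Fstl1 read between 4.05 and 5.18 and were not above it on any.

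The receptors and SMADs through which BMP15 and GDF9 act were present with few exceptions: 18 of 22 were above background on all 3 arrays, with a list median of 10.32. Bmpr2, the type II receptor that both factors use, read 13.29, 13.29 and 13.37 and ranked 75. The type I receptors Bmpr1b (11.85, 11.80, 11.92), known as the partner for BMP15, and Tgfbr1 (11.55, 11.58, 11.68), known as that for GDF9, were both well above background. Bmpr1a (11.12 ± 0.08), Acvr2a (11.79 ± 0.08), Tgfbr3 (10.32 ± 0.21), Amhr2 (9.50 ± 0.13), Acvr1b (8.27 ± 0.09), Acvr1 (7.33 ± 0.27) and Acvr2b (6.47 ± 0.17) followed. Tgfbr2, the type II receptor for TGF-beta itself, read 5.77, 5.63 and 5.55 and was not above background on any array, nor was Acvr1c (4.83 ± 0.14).

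Of the SMADs that carry the signal, Smad1 read 12.02 ± 0.03, Smad5 9.16 ± 0.25, Smad2 8.14 ± 0.18 and Smad3 10.31 ± 0.03, and the common partner Smad4 11.24 ± 0.09. Smad9, the other BMP-regulated SMAD, read 5.42 ± 0.09 and was not above background. The inhibitory pair was split: Smad7 read 11.68 ± 0.17, and Smad6 4.95 ± 0.10, not above background on any array. The corepressors Skil (11.99 ± 0.26) and Ski (11.44 ± 0.03) completed the list.

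**Figure D2:**
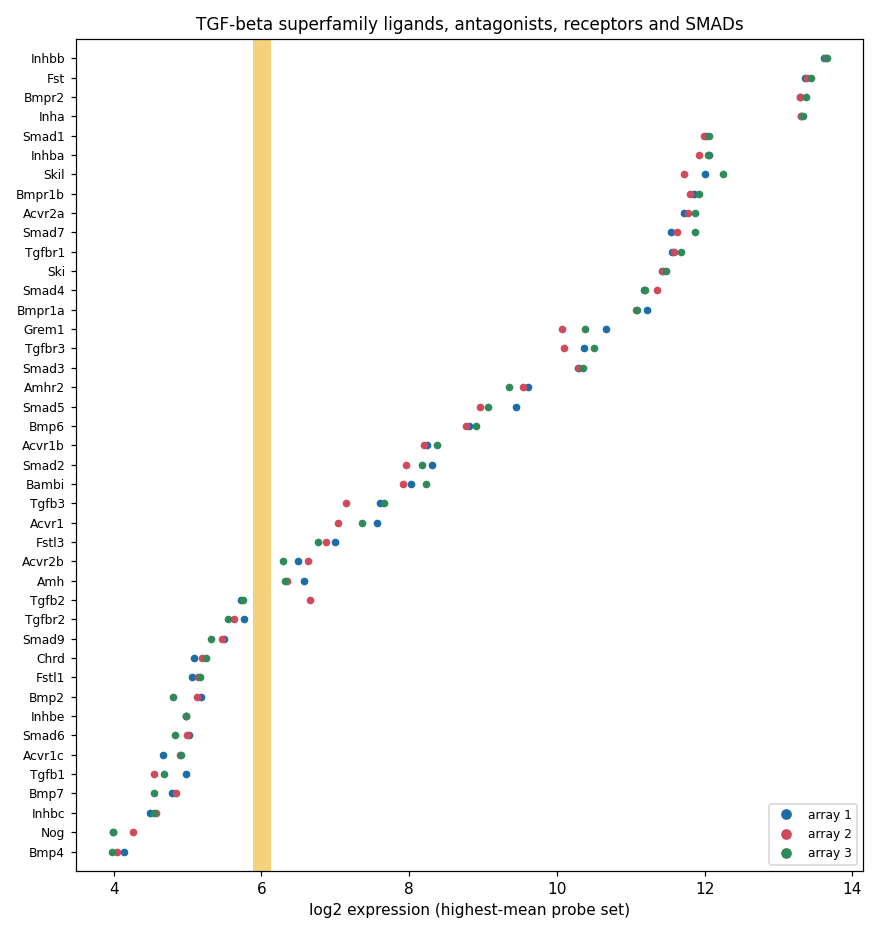
Log2 expression of each TGF-beta superfamily ligand, antagonist, receptor and SMAD on wildtype arrays 1, 2 and 3 (coloured points), ordered by mean; the orange band covers the background levels of the 3 arrays. Inhbb, Fst, Bmpr2 and Inha lie above 13 with their 3 points almost on top of each other, and Nog and Bmp4 lie near 4.

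Contacts and signals between cumulus cell and oocyte were represented by both cell-surface and filopodial proteins. Myo10 (13.11 ± 0.01) and Fscn1 (12.93 ± 0.13), a myosin and an actin bundler of the projections that reach the oocyte, ranked high, as did the adhesion protein Cdh2. Of the gap junction genes other than Gja1, Gjc1 read 6.95 ± 0.12, while Gja4, the connexin of the oocyte side, and Gjb2 read 6.00 ± 0.14 and 6.11 ± 0.11 and exceeded background on 2 arrays. Npr2, whose cGMP holds the oocyte in meiotic arrest, lay above background as given above. The receptors Npr1 (3.90 ± 0.07) and Npr3 (4.15 ± 0.08) for related peptides did not. Kitl, the ligand for the oocyte receptor Kit, read 9.50, 9.68 and 9.63, and Kit itself 4.38 ± 0.13. Cdh1, the cadherin of the oocyte, read 4.08 ± 0.22.

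On the route from glucose to lactate 19 of 25 measured genes were above background on all 3 arrays, against 55% of all genes, with a list median of 10.53. Gpi1, the isomerase between hexokinase and phosphofructokinase, and the enolase Eno1 were not analysed here. Glucose entry was represented by Slc2a1 (12.63, 12.89, 12.74) and Slc2a3 (6.95 ± 0.37), and not by the insulin-responsive Slc2a4 (4.81 ± 0.08). Of the hexokinases Hk2 read 10.82 ± 0.21, while Hk1 (5.86 ± 0.04) exceeded background on 1 array. All 3 phosphofructokinases were above background, Pfkp at 11.27 ± 0.14, Pfkl at 9.35 ± 0.06 and Pfkm at 8.10 ± 0.08. The oocyte is known to lack much of this capacity and to rely on pyruvate from its cumulus cells.

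The lower steps were represented by Aldoa (13.01 ± 0.10) and Aldoc (7.87 ± 0.09), Tpi1 (12.15 ± 0.07), Gapdh (13.54 ± 0.02), Pgk1 (13.29 ± 0.04), Pgam1 (12.48 ± 0.05) and Pkm (12.21 ± 0.05). The muscle mutase Pgam2 (5.53 ± 0.02) and the neuronal enolase Eno2 (4.12 ± 0.15) were not above background, and the muscle enolase Eno3 (6.45 ± 0.22) and the liver pyruvate kinase Pklr (6.76 ± 0.03) were just above it. Ldha, the lactate dehydrogenase subunit that favours lactate, read 12.74, 12.82 and 12.70. Ldhb read 10.59, 10.58 and 10.43, and the sperm form Ldhc 5.57 ± 0.15, not above background. The monocarboxylate transporters Slc16a1 (12.74 ± 0.08) and Slc16a3 (11.41 ± 0.23), which carry lactate and pyruvate across the membrane, were above background. Slc16a7, a carrier with high affinity for pyruvate, was not, at 4.54, 4.93 and 5.60.

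**Figure D3:**
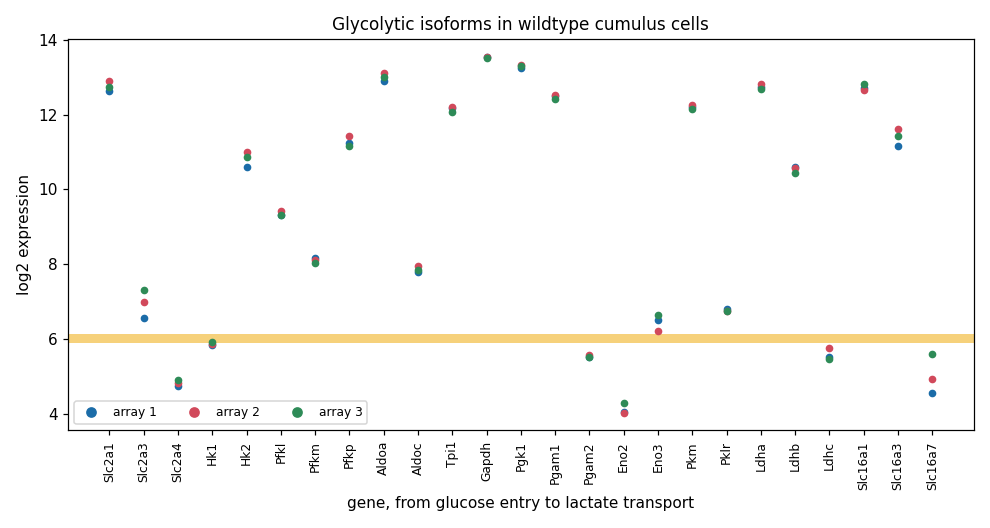
Log2 expression of 25 genes from glucose entry to lactate transport on the 3 wildtype arrays (coloured points), in pathway order along the horizontal axis; the orange band covers the background levels. Each step plotted from Slc2a1 to Slc16a1 has at least 1 isoform above the band, while Slc2a4, Eno2, Pgam2, Ldhc and Slc16a7 lie below it.

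Mitochondrial and sterol metabolism were complete among the genes measured. All 23 genes of the tricarboxylic acid cycle, all 34 of the respiratory chain and all 17 of cholesterol synthesis were above background on all 3 arrays. The cycle list ran from Dld (8.91 ± 0.04) and Ogdh (8.92 ± 0.06) to Mdh1 (12.75 ± 0.07) and the NADPH-forming Idh1 (13.30 ± 0.04). The respiratory list had a median of 11.41 and ran from Cox7c (7.71 ± 0.47) to Cox7a2. Cholesterol synthesis ran from Mvd (7.94 ± 0.15) and Mvk (8.09 ± 0.13) to Msmo1 (11.44 ± 0.16), Idi1 (11.60 ± 0.20), Dhcr7 (12.67 ± 0.11) and Hmgcs1. In each of these 3 lists no gene spanned 1 log2 unit between arrays.

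Antioxidant genes were above background in 25 of 26 cases. Besides Sod1 the highest were the peroxiredoxins Prdx4 (12.87 ± 0.10) and Prdx2 (12.44 ± 0.01) and thioredoxin, Txn1 (12.86 ± 0.04), and the exception was the secreted dismutase Sod3 (5.24 ± 0.11). Amino acid transporters were above background in 15 of 20 cases, led by Slc38a1 (12.99 ± 0.06), the arginine and lysine carrier Slc7a1 (12.37 ± 0.02), the glycine carrier Slc6a9 (12.11 ± 0.12) and Slc38a2 (11.35 ± 0.15). Slc7a11, the cystine exchanger, read 3.85 ± 0.18, and Slc1a1, Slc7a3 and Slc1a5 read 4.67 to 5.46, none above background on any array.

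The cells carried the transcripts of dividing cells. Of 30 cell cycle genes 27 were above background on all 3 arrays, with a list median of 10.18. Rrm2, a subunit of ribonucleotide reductase, read 13.26 ± 0.04, the licensing factor Mcm4 12.79 ± 0.07 and the mitotic regulator Birc5 12.74 ± 0.07. Of the D-type cyclins, Ccnd2, which FSH is known to induce in granulosa cells, read 12.81 ± 0.03, Ccnd3 read 6.57 ± 0.16, and Ccnd1 (5.96 ± 0.38) exceeded background on 1 array. The inhibitors Cdkn1c (4.78 ± 0.10) and Cdkn2a (4.73 ± 0.18) were not above background.

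Genes of steroid synthesis and luteinization were above background on all 3 arrays in 9 of 16 cases, near the 55% of all genes. Scarb1, which takes up cholesterol from lipoproteins, read 12.51, 12.71 and 12.50, and Hsd3b1, which makes progesterone from pregnenolone, 12.30, 12.14 and 12.51. Cyp17a1, the theca cell enzyme for androgens, read 4.96 ± 0.46, Akr1c18, which degrades progesterone, 4.81 ± 0.15, Ptgfr 4.28 ± 0.20 and Hsd3b2 3.40 ± 0.05, none above background. The gonadal aromatase and the LH receptor were not analysed here.

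Expansion genes were above background on all 3 arrays in 9 of 19 cases, near the 55% of all genes, with a list median of 6.42. With background at the 99th percentile of the same families the count was 4. Vcan, a proteoglycan of the expanded matrix, already read 12.26, 12.19 and 12.22, and Egfr, the receptor for the EGF-like factors, 10.84, 10.78 and 10.76. Adamts1 (8.18 ± 0.37), Erbb2 (7.56 ± 0.14), Cebpb (7.42 ± 0.36) and the factor Btc (6.42 ± 0.03) were above background too. Ptx3 (4.82 ± 0.21), which links the hyaluronan chains, and the EGF-like factor Ereg (3.77 ± 0.45) were not, nor were the hyaluronan receptor Cd44 (4.46 ± 0.09), Pgr (4.29 ± 0.09), Snap25 (3.60 ± 0.15) or Il6 (3.20 ± 0.01). Those genes are known to be induced strongly by the ovulatory stimulus.

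Several expansion genes differed between arrays. Has2, which makes hyaluronan, read 6.43, 6.20 and 5.65 and was above background on arrays 1 and 2. Tnfaip6, which attaches proteins to it, read 8.05, 6.65 and 7.40. Ptgs2, the inducible cyclooxygenase, read 6.95, 6.56 and 7.98, and its product's receptors Ptger2 (6.03 ± 0.47) and Ptger4 (5.49, 4.74, 6.56) exceeded background on 2 arrays and on 1. Tnfaip6 was highest on array 1, and Ptgs2 and Ptger4 on array 3. Erbb3 (6.62 ± 0.53) exceeded background on 2 arrays. In this list 4 genes spanned 1 log2 unit or more, against 166 of all genes (0.912%).

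Markers of the other cells of the ovary were mostly at background. None of 10 endothelial markers, Pecam1, Cdh5 and Kdr among them, was above background on any array, at 3.91 to 5.35. No immune marker was above on all 3 arrays, and 7 of 9 were above on none, while Cd68 (6.06 ± 0.25) and Ptprc (6.01 ± 0.20) exceeded background on 2 arrays and on 1. Of 14 theca and stroma markers, 10 were not above background on any array, among them Cyp17a1, Col1a1 (5.24 ± 0.09) and Dcn (4.57 ± 0.04). The exceptions were the hedgehog receptor Ptch1 (11.34 ± 0.16), Pdgfra (7.63 ± 0.34), Pdgfrb (7.55 ± 0.12) and Des (6.48 ± 0.14). Of 10 surface epithelium markers Krt8 (8.54 ± 0.13), Epcam (6.78 ± 0.10), Krt18 (6.70 ± 0.26) and Upk1b (6.31 ± 0.04) were above background, and Krt19, Msln, Cdh1, Upk3b and Lgals7 were above it on no array. Alas2, of heme synthesis in red cells, read 7.28, 8.14 and 7.51, whereas Hba-a1 (3.90 ± 0.10), Slc4a1 and Epb42 were not above background. The log2 of each list's summed level over the arrays was 8.15 to 8.19 for endothelial and 8.35 to 8.46 for immune markers, sums of probe signals at or near background. It was 11.63 to 11.86 for theca and stroma, 7.95 to 8.55 for erythroid and 9.75 to 9.86 for surface epithelium markers. Without the highest member of each, Ptch1, Alas2 and Krt8, left out after their values were seen, it was 9.53 to 9.78, 6.52 to 6.55 and 9.02 to 9.05.

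Oocyte transcripts were found in the cumulus cell samples, at levels that differed between arrays. Of 28 oocyte genes 8 were above background on all 3 arrays, 12 on none and 8 on 1 or 2, whereas 55% of all genes were above on all 3. The 8 became 2 with background at the 99th percentile of the same families and 17 with the 40th percentile of each array. The list's median was 5.08, 6.34 and 5.71 on arrays 1, 2 and 3. Array 2 was the highest for 25 of the 28, against 6755 of all 18194 genes. Summed over the list on the linear scale, the log2 level was 13.39, 13.81 and 13.54, and without Rgs2, the highest member, left out after its values were seen, it was 10.33, 11.94 and 10.85. Zp3, a glycoprotein of the zona pellucida, read 4.86, 8.11 and 6.34, Gdf9 5.03, 8.12 and 6.56, and Oosp1, an oocyte-secreted protein, 5.36, 8.52 and 6.38. Each was not above background on array 1, and each was higher on array 2 than on array 3. Bmp15, given above, was lowest on array 1 as well. In a pooled sample, fewer cells of a type and less RNA per cell cannot be told apart.

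Not all oocyte genes followed this course. Rgs2, which is also transcribed in somatic cells, read 13.21, 13.35 and 13.29. Tle6 (7.70 ± 0.28), Sohlh1 (6.69, 6.69, 6.69) and Nlrp5 (6.13 ± 0.18) were above background on all 3 arrays and spanned less than 1 log2 unit. Ooep (6.65, 8.78, 7.18), E330034G19Rik (6.30, 8.21, 6.75), Btg4 (6.29, 7.61, 6.42) and H1f8 (5.96, 7.25, 5.99) were above background on all 3 arrays. They did share the order of arrays, lowest on array 1 and highest on array 2. Zp2 (4.90, 6.44, 4.98) and Nlrp14 (5.08, 6.32, 5.29) had that order too and exceeded background on array 2 alone. Padi6 (6.02 ± 0.42) and Zar1 (5.99 ± 0.32) exceeded background on 1 array. Zp1, Nobox, Figla, Dppa3, Mos, Khdc3, Pou5f1, Tcl1, Obox5, Omt2b, Ddx4 and Kit were above background on no array, at 3.62 to 5.64. The number of oocyte genes above background on both remaining arrays was 12 without array 1, 8 without array 2 and 8 without array 3.

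Promoters of Zp3 and Oosp1 are shown as examples of the oocyte transcripts that varied together. They were taken from RefSeq, build GRCm38.p6, at chr5:135979855-135980154 on the plus strand for Zp3 and chr19:11691002-11691301 on the minus strand for Oosp1, again from 250 bases before to 50 bases after the start. Capitals mark the E-box CANNTG, which reads the same on both strands and is the kind of site that FIGLA, the factor known to switch on zona genes, binds. Its matches in Zp3 begin 181, 134 and 55 bases before the start and at base 8 after it, and in Oosp1 they begin 249, 194, 93, 59 and 48 bases before the start.
Zp3: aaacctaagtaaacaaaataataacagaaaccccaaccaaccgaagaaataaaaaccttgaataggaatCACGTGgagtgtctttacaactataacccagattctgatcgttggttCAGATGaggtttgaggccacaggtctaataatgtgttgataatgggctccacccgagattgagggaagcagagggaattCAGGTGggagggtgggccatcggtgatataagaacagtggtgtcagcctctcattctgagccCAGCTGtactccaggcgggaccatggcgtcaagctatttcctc
Oosp1: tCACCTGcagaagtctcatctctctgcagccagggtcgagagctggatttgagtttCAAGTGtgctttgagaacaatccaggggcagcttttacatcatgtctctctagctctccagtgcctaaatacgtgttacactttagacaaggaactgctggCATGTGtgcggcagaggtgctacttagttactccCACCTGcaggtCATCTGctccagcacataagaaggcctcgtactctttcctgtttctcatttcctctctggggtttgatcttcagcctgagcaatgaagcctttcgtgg
The E-box was found in 23 of the 23 promoters listed for oocyte genes and in 72.2% of all 27025 promoters, so it is a frequent motif. In the same 23 promoters TGACG was found in 21.7%, against 21.0% of all. AGGTCA was found in 21.7% against 16.0%, and TATAAA in 8.70% against 14.2%.

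Among genes above background on all 3 arrays, the spread between arrays was larger at lower levels. Their median SD was 0.0979. It was 0.0626 for the 1518 of these genes with a mean of 11 or more, 0.0955 for the 4749 between 8 and 11, and 0.123 for the 3746 below 8. Genes above background on no array did not continue this course, with a median SD of 0.105. Of the 10875 genes above background on at least 1 array, 124 (1.14%) spanned 1 log2 unit or more between their lowest and highest array. These are called variable here, and since they were chosen by their wildtype values, their wildtype spread is a description. The array that stands apart is the one farther from the middle value, and it was array 2 in 28 genes where it was high and in 43 where it was low. Over all genes, 166 spanned 1 log2 unit over 3 arrays, and 94, 47 and 102 did over the 2 arrays left without array 1, 2 or 3. A span over fewer arrays can only be smaller.

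**Figure D4:**
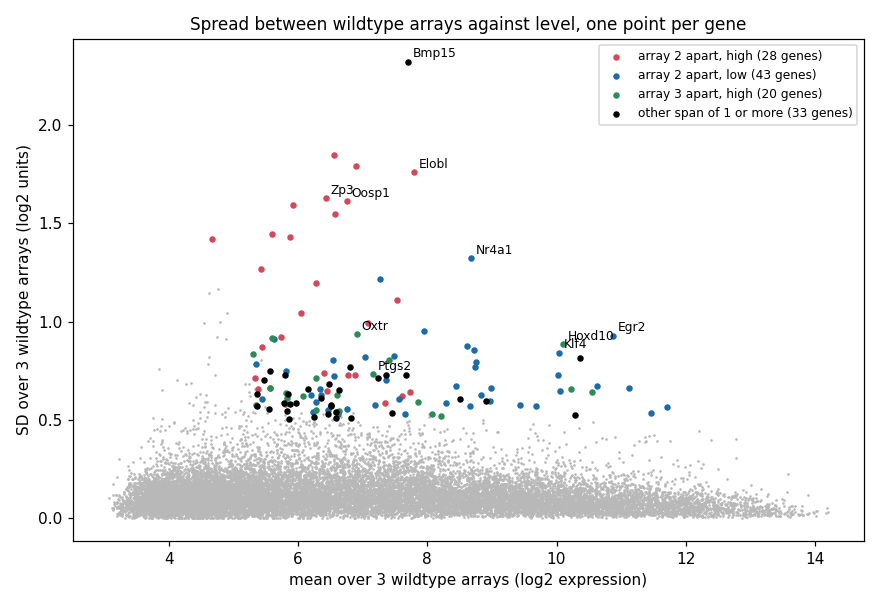
SD over the 3 wildtype arrays against mean log2 expression, 1 point per gene; colours mark genes above background on at least 1 array that span 1 log2 unit or more, by the array that stands apart. Bmp15 has the largest SD (2.32), the 28 genes high on array 2 (red) have means up to 7.79 (Elobl), and the 43 genes low on array 2 (blue) reach 11.72 (Klf6).

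In 28 of the variable genes array 2 stood apart and high. Of these 9 were on the oocyte list, and 10 oocyte genes were variable in all, each lowest on array 1 and highest on array 2. Beside Zp3, Oosp1 and Gdf9 the largest spreads were those of Cphx3 (5.03, 8.61, 6.01), Oosp2 (5.42, 8.89, 6.37) and Elobl (6.42, 9.78, 7.18). Nlrp4f, AU015836, Esrp1, Pramel25, Dppa2, Khdc1b and Pla2g4c were in the same class. The class had a median SD of 1.02 in wildtype, of 0.940 over the 3 Bmp15-/- arrays and of 0.487 over the 3 DM arrays. The medians for all genes above background on all 3 wildtype arrays were 0.0979, 0.117 and 0.164.

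In 43 genes array 2 stood apart and low. The immediate early transcription factors and phosphatases formed part of this class, with 8 members of the immediate early and heat shock list. Nr4a1, an orphan nuclear receptor induced by gonadotropins, read 9.70, 7.18 and 9.14, Dusp6, a phosphatase that shuts off ERK, 8.63, 6.86 and 8.35, and the ETS factor Fli1 7.81, 5.87 and 8.11. Egr2 (11.74, 9.90, 10.98), Klf4 (10.81, 9.14, 10.15), Fosb (10.67, 9.39, 10.12), Nr4a2 (9.36, 8.28, 9.27), Atf3 (7.80, 6.17, 7.15), Klf6 (12.25, 11.12, 11.78) and Klf2 (7.32, 5.72, 6.58) were chosen after their values were seen. All 8 variable members of that list were lowest on array 2 and highest on array 1.

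The immediate early list as a whole had 22 of 28 members above background on all 3 arrays, and its median was 10.74, 9.64 and 10.47 on the 3 arrays. Array 2 was the lowest for 22 of the 28, against 6254 of all 18194 genes. Its steadier members were the heat shock proteins Hspa8 (13.58 ± 0.04) and Hsph1 (13.80 ± 0.04), and Nr4a3 (5.67 ± 0.02), Fosl1 (5.10 ± 0.11) and Hspa1a (4.24 ± 0.46) were not above background on any array. These genes are known to respond to the handling of cells as well as to hormones. The array with the lowest immediate early levels was the one with the highest oocyte levels, and any link between the 2 was not tested.

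**Figure D5:**
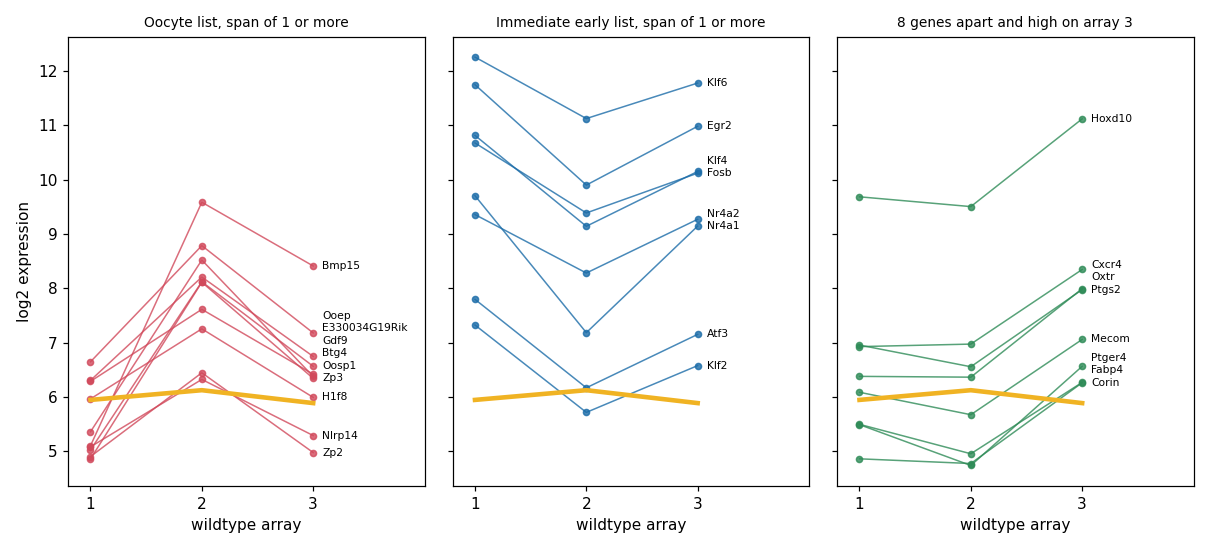
Log2 expression on wildtype arrays 1, 2 and 3 of the variable genes of the oocyte list, of the immediate early list and of 8 genes that stood apart and high on array 3; lines join the values of 1 gene, array numbers have no order, and the orange line is the background level of each array. Oocyte genes peak on array 2, where immediate early genes are lowest.

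The promoters of Nr4a1 and Ptgs2, at chr15:101266596-101266895 and chr1:150099781-150100080 on the plus strand of GRCm38.p6 (RefSeq), are shown for comparison with those of Gja1 and Fos, since Nr4a1 was lowest on array 2 with the immediate early genes and Ptgs2 highest on array 3. Capitals mark TGACG or its reverse complement CGTCA. In Nr4a1 the matches start 233, 213, 69 and 40 bases before the transcription start, and in Ptgs2 the only match starts at base 14 after it.
Nr4a1: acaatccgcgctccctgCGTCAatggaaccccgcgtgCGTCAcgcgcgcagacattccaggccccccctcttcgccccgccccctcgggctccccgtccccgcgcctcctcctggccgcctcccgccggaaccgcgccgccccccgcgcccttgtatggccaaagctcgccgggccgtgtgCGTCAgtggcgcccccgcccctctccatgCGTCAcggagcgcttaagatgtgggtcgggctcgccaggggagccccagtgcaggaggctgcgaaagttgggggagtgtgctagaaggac
Ptgs2: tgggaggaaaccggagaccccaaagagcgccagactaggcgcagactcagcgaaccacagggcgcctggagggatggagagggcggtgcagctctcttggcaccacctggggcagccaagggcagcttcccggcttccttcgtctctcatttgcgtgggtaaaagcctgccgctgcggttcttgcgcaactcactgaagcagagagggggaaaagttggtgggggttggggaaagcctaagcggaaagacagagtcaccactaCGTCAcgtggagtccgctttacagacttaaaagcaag
The motif was found in 17 of 36 promoters listed for genes low on array 2 (47.2%), in 2 of 18 for genes high on array 2 (11.1%), in 6 of 15 for genes high on array 3 (40%), in 4 of 9 for genes high on array 1 (44.4%), and in 21.0% of all promoters. The genes low on array 1 gave 2 of 7 and those low on array 3 gave 2 of 10. These classes were formed from the values, so the shares are a description.

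In 20 genes array 3 stood apart and high, and 2 of them, Ptgs2 and Ptger4, belong to the expansion list. The oxytocin receptor Oxtr read 6.38, 6.36 and 7.99. Hoxd10 (9.68, 9.50, 11.12), the chemokine receptor Cxcr4 (6.93, 6.97, 8.35), the protease Corin (4.86, 4.78, 6.26), Mecom (6.09, 5.67, 7.06), the cAMP-responsive factor Crem (6.21, 6.45, 7.25) and the clock gene Per2 (7.30, 7.78, 8.48) were chosen after their values were seen. Each was higher on array 3 than on either other array by more than those 2 differed. The remaining 33 variable genes were split between array 1 high (12), array 3 low (12) and array 1 low (9). Socs3, an inhibitor of cytokine signalling, was the most variable of the first of these at 11.29, 9.78 and 10.02, and Bmp15 of the last.

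The mutant arrays were not used to choose these genes, and they showed which of them also vary among replicates elsewhere. The 90th percentile of the wildtype SD over genes above background on all 3 arrays was 0.224. Of the 124 variable genes, 63 were above background on only 1 or 2 arrays, a group in which that percentile was 0.471. Median means were 8.66 for genes above on all 3 arrays and 6.63 for the variable genes, so the shares below compare unlike levels. Over the Bmp15-/- arrays, 23 of the 28 genes high on array 2 and 26 of the 43 low on array 2 exceeded 0.224. So did 14 of the 20 high on array 3, against 17.8% of all genes above background on all 3 wildtype arrays. The counts were 9 of 12 for array 1 high, 4 of 9 for array 1 low and 4 of 12 for array 3 low. Over the DM arrays the first 3 classes gave 23, 33 and 17 and the last 3 gave 8, 8 and 8, against 32.7%. The other variable genes did not exceed 0.224 over the Bmp15-/- arrays, among them Hoxd10 (SD 0.00), Klf6 (0.02) and Egr2 (0.08). For Hoxd10 the SD was 0.88 over the wildtype arrays and 0.56 over the DM arrays.

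The same gene was often read both as present and as at background, depending on the probe set. Of 9012 genes with 2 or more probe sets, 6493 had their highest above background on all 3 arrays, and 3776 of these (58.2%) also had a probe set that was not above background on any array. Vcan had 8 probe sets, 3 above background on every array (12.22, 9.63 and 9.26) and 5 on none (3.55 to 4.97). Foxl2 read 10.52 on 1 probe set and 4.59 on the other, Inhba 12.01 and 5.72, and Ptgs2 7.16 and 3.66. For Bmpr1a 4 probe sets read 9.84 to 11.12 and 2 read 3.82 and 4.99. Tgfbr1 read 11.6, 6.69 and 4.03. Probe sets that were all above background differed too: Inhbb read 13.64 and 8.61, Bmpr2 13.32, 9.11 and 6.62, and Bmpr1b 11.86, 7.21 and 7.15. Which transcript ends or splice forms the probe sets detect was not analysed here, and the highest of them is the value given throughout.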

How the data were processed

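Total RNA of cumulus cells was read on 9 single-colour expression arrays, of which the 3 wildtype arrays are described. The values are log2 expression per probe set as the authors deposited them. Per the submitters' processing notes they used RMA and affy, without a version or setting given in the files or labels used here. RMA fits all arrays of a study together and compresses differences near background. Gene names came from the platform's annotation, updated through a RefSeq gene table (GRCm38.p6): 34958 name 1 gene, 932 several and 9211 none, and the latter kinds were not used for gene levels.

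For each gene the probe set with the highest wildtype mean was taken, and counts, means, SDs and spans were computed with Python 3.11.15, numpy 2.4.6 and pandas 2.3.3, after a check on simulated data. Plots used matplotlib 3.10.9. With 1 group and no comparison of genotypes, no test was run. The number of arrays, 3, limits the precision of each SD. The gene lists, 29 in all, and the rules were chosen with earlier results of these data known, and 45 list members without a single-gene probe set were not analysed here.

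Genes were named by rule: the 30 highest means, the 20 largest SDs, up to 4 highest and 4 lowest of each list, and every member of the granulosa, receptor and SMAD, ligand and antagonist, expansion, glycolysis, oocyte and Y-linked lists. Genes outside the rule, chosen after their values were seen, were Gjc1, Gja4, Gjb2, Kdr, Col1a1, Lgals7, Socs3, Xist, Tsix, the immediate early and array 3 genes marked as such, and the family members of the closing section. Alternatives were other background levels (the 99th percentile of the same families, the 40th percentile of each array), the mean over probe sets, probe sets specific to 1 transcript first, quantile normalization, probe sets with several genes, a span of 2 log2 units, and leaving out each array.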

Additional observations from a re-analysis of the deposited data

Results flagged for a closer look

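The gene levels leave out 10092 probe sets that name no single gene, array controls aside. Of these 1948 (19.3%) lay above background on all 3 wildtype arrays, a signal outside the genes described above. Among the 100 probe sets with the highest wildtype mean, 46 name 1 gene, 39 several genes and 15 none, 5 of the last being array controls. The 27 control probe sets for Bacillus genes read 3.42 to 5.10.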

How the results depend on the processing

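Of 315 recomputed values 290 stayed within their margin, which is 1.5 times for a count. The genes not above background on any array fell from 7319 to 4640 with background at the 40th percentile of each array. The genes spanning 1 log2 unit, 166 in all, numbered 108 with the mean over probe sets, 19 at a span of 2 units, and 47 to 102 when each array was left out, with the lowest value without array 2.

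List members above background moved in 19 of 261 cases. With the 99th percentile of the same families as background, 4 expansion, 8 extracellular matrix, 2 oocyte, 1 theca and stroma and 1 surface epithelium genes remained above, instead of 9, 14, 8, 4 and 4. With the 40th percentile, 17 oocyte, 8 theca and stroma, 2 endothelial, 4 immune, 2 erythroid, 2 Y-linked and 7 surface epithelium genes were above. With the mean over probe sets, 9 extracellular matrix, 2 theca and stroma and 2 surface epithelium genes were. With specific probe sets first, 0 Y-linked genes were above, and without array 2, 1 immune gene was. With probe sets of several genes, 75 ribosomal protein and 4 erythroid genes were above, instead of 45 and 1, and 29 of the 100 highest genes kept such a place. The cause of these shifts was not tested, apart from the larger number of genes that probe sets of several genes bring in. No paired analysis was possible because only 1 group was described. Signal near background limits what can be said of low genes, and counts of markers of other cells rest on that level.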

Other observations

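Several families outside the lists were read gene by gene, and their members were chosen after their values were seen. Of 36 Hox genes, the transcription factors that set position along the body axis, 12 were above background on all 3 arrays. The highest lay in the Hoxd and Hoxc clusters: Hoxd9 read 10.37, 10.59 and 11.16, Hoxd8 10.63, 10.44 and 10.80, Hoxd10 9.68, 9.50 and 11.12, Hoxc4 9.22, 8.79 and 9.09, and Hoxc8 8.34, 8.65 and 8.35. Hoxd13 (4.27 ± 0.13), Hoxd1 (3.50 ± 0.16) and Hoxd3 (4.49 ± 0.25) of the Hoxd cluster were not above background. Mitochondrial ribosomal proteins were above in 76 of 76 cases and proteasome subunits in 39 of 40. Claudins, which seal epithelia, were above in 3 of 24, cytochromes P450 in 7 of 72, collagens in 6 of 42, Sox factors in 3 of 21, Wnt ligands in 2 of 19 and chemokines in 3 of 31. Over all genes that share was 55%.

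Imprinted genes, transcribed from 1 parental copy, were above background on all 3 arrays in 12 of 20 cases, near the 55% of all genes. Plagl1 (12.62 ± 0.07), Igf2r (11.87 ± 0.13), Gnas (11.47 ± 0.02) and the non-coding Meg3 (10.02 ± 0.17) led, and Igf2 (5.54 ± 0.17), Peg10 (4.46 ± 0.13) and Zim1 (4.52 ± 0.05) were not above it. In the insulin-like growth factor system, Igf1 read 10.75 ± 0.08 and its receptor Igf1r 11.41 ± 0.08, while the protease Pappa (4.35 ± 0.04) and the binding protein Igfbp3 (5.03 ± 0.07) were not above background. Of 29 nuclear receptors 17 were above background on all 3 arrays, again near the 55% of all genes. Among them were Nr2f6 (11.70 ± 0.11), Nr2f2 (10.79 ± 0.28) and Pparg (10.46 ± 0.11). Thrb (4.60 ± 0.15), Rarb (4.69 ± 0.23) and Nr2f1 (3.78 ± 0.14) were not. Xist, the RNA that coats the inactive X chromosome, read 10.98, 10.31 and 11.02, lowest on array 2, and its antisense Tsix 4.40, 4.46 and 4.35.

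The families that set the background held 6 genes above it on all 3 arrays. Defb19, a beta-defensin, was far above at 10.57, 10.96 and 10.62, followed by Defb1 at 7.13, 7.59 and 7.55. The other 4 were Krtap5-1, Krtap10-4, Krtap3-1 and Defb15, and 122 of the 130 were above it on no array.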
